A study of Mus musculus with 2 samples.

Results

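The distal part of mouse chromosome 8 carried 291 genes with at least 5 RPKM in WT or G34R embryonic stem (ES) cells, out of 5867 genes at that level and 26127 genes quantified in all. They were chosen by position and level: a start at or beyond base 59010319 of chromosome 8 in the mm9 assembly, and at least 5 RPKM in 1 or both samples, with Klf2 left out. RPKM is a read count scaled for transcript length and for the size of the library, so levels can be compared between genes. The segment was picked because its genes were already known to be higher in the G34R library, so every count and median of the G34R to WT ratio given here describes these members and tests nothing.

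WT cells were unmodified 129S1/SvImJ mouse ES cells, H3f3a+/+, at fewer than 20 passages. G34R cells, given the same strain and passage labels, carried the H3.3 G34R substitution on 1 copy of H3f3a and kept WT H3f3b, which encodes the same H3.3 protein from another chromosome. The mutation was put in by 2 rounds of recombination, first targeting with a neo cassette and a WT minigene and then Cre excision, and the endogenous H3f3a promoter drove it. Both were grown in serum with leukaemia inhibitory factor. WT cells did not go through that selection, and each group was 1 library, so genotype, clone and culture cannot be told apart.

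When a cell carries an extra copy of a chromosome or part of one, most genes on it are transcribed in proportion to their copy number, so that 3 copies in place of 2 give a ratio near 3 to 2, or 0.585 on the log2 scale. Gains of whole chromosomes, chromosome 8 and chromosome 11 among them, are well known in cultured mouse ES cells, since cells that carry them can outgrow their neighbours. Some genes depart from proportion because feedback holds their RNA level, and others because they answer to signals that differ between cultures. DNA was not analysed here, so the RNA ratios below do not measure copy number.

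Depth was estimated from the steps between low RPKM values as 87.9 M reads in WT and 72.2 M in G34R cells. Of 10 ES cell markers, levels ran from 46.3 to 708 RPKM in WT and from 16.4 to 648 RPKM in G34R cells, and 7 fibroblast markers were at or under 1.18 RPKM in both. Zfp42, an ES cell marker, was at 180 RPKM in WT and 16.4 RPKM in G34R cells, and Nanog was at 127 and 52.2 RPKM. The targeted gene, H3f3a, was at 8.17 RPKM in WT and 4.89 RPKM in G34R cells, and H3f3b was at 68.8 and 58.8 RPKM. The H3f3a value does not separate WT from G34R transcripts, and how fully it counts the G34R transcripts was not examined. With 1 library per group there is no replicate error. The 95% interval given for some ratios covers the counting of reads only, and its median width on either side of a member's log2 ratio was 0.0768, and the widest was 0.265.

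The members were higher in G34R cells as a group. Their median log2 ratio of G34R to WT RPKM was 0.47, a 1.38-fold ratio, and the middle 50% of them lay between 0.24 and 0.74. The 88 genes at this level on the proximal part of the same chromosome had a median of -0.12, and the 5487 on all other chromosomes had a median of -0.08. Set against other chromosomes, the members' median was higher by 0.55, a 1.46-fold ratio. The medians of the other 18 autosomes ran from -0.14 to 0.00. The members held 3.44% of all RPKM in WT cells and 4.71% in G34R cells.

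**Figure D1:**
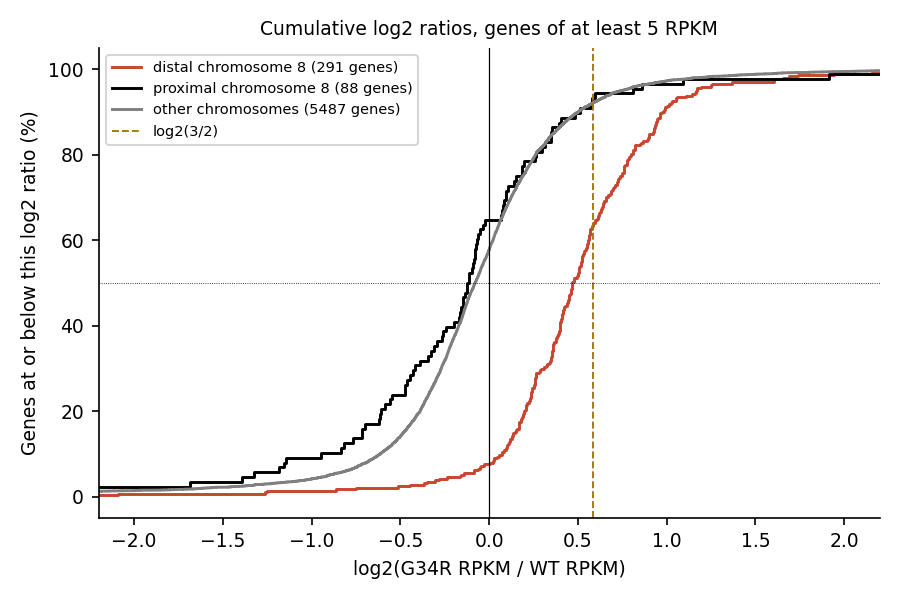
Percentage of genes (y axis) at or below each log2 ratio of G34R to WT RPKM (x axis) for the 291 members, the 88 genes of proximal chromosome 8 and the 5487 genes of other chromosomes. The members' curve lies to the right of the other 2 curves over most of its range, with a median of 0.47 against -0.12 and -0.08, and meets them at its upper end.

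To sort the members, a band was set around the 3 to 2 ratio, from log2 0.29 to 0.88, or 1.22-fold to 1.84-fold. These limits lie midway between the 3 to 2 ratio and no difference, and as far beyond it on the other side. In all, 155 of the 291 members (53.3%) lay in the band, where 16.7% of all 5867 genes did. A further 87 (29.9%) lay below it, against 79.1% of all genes, and 49 (16.8%) lay above it, against 4.28%. Past 2-fold, 26 members were higher in G34R cells against 3.09% of all genes, and 4 were lower against 4.07%. The count of 26 was 44 when centred on other chromosomes, 42 when centred on the 500 genes nearest in RPKM and 16 when 5 RPKM was required in both samples. At any size, 22 members (7.56%) were lower in G34R cells, against 55.3% of all genes. Since the contrast itself chose the segment, nothing is read from these shares. The counting interval lay wholly inside the band for 128 members, wholly below it for 65 and wholly above it for 33, and the interval of 48 members held the 3 to 2 ratio itself.

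The level threshold shapes the list. There were 246 members at or above 5 RPKM in both samples, 41 that reached it only in G34R cells and 4 that reached it only in WT cells. Those 41 had to be higher in G34R cells to enter. Of them, 15 are among the 49 above the band, 22 among the 155 in it and 4 among the 87 below it. With 5 RPKM required in both samples, 133 members lay in the band, 79 below and 34 above. Just under the threshold lay Nae1, at 3.23 RPKM in WT and 4.95 RPKM in G34R cells, and Slc38a7, at 3.15 and 4.98 RPKM. Just over it lay Gm10282, at 4.78 and 5.02 RPKM, and 4921524J17Rik, at 4.50 and 5.06 RPKM. The segment also held 140 genes from 1 to under 5 RPKM, with a median log2 ratio of 0.48, close to that of the members, and 27 of these were lower in G34R cells. Another 257 were above 0 and under 1 RPKM, and 116 were listed at 0 in both samples.

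The ratio was spread along the whole segment rather than gathered in a stretch of it. The members ran over 72.25 Mb, and in bins of 10 Mb their medians lay between 0.36, from 20 to 30 Mb, and 0.56, from 70 to 80 Mb, the latter over 4 members. Genes in the band, below it and above it occurred in every bin. The median difference between neighbouring members was 0.34 on the log2 scale, and that between all pairs of members was 0.36, so position within the segment said little about a gene's ratio.

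**Figure D2:**
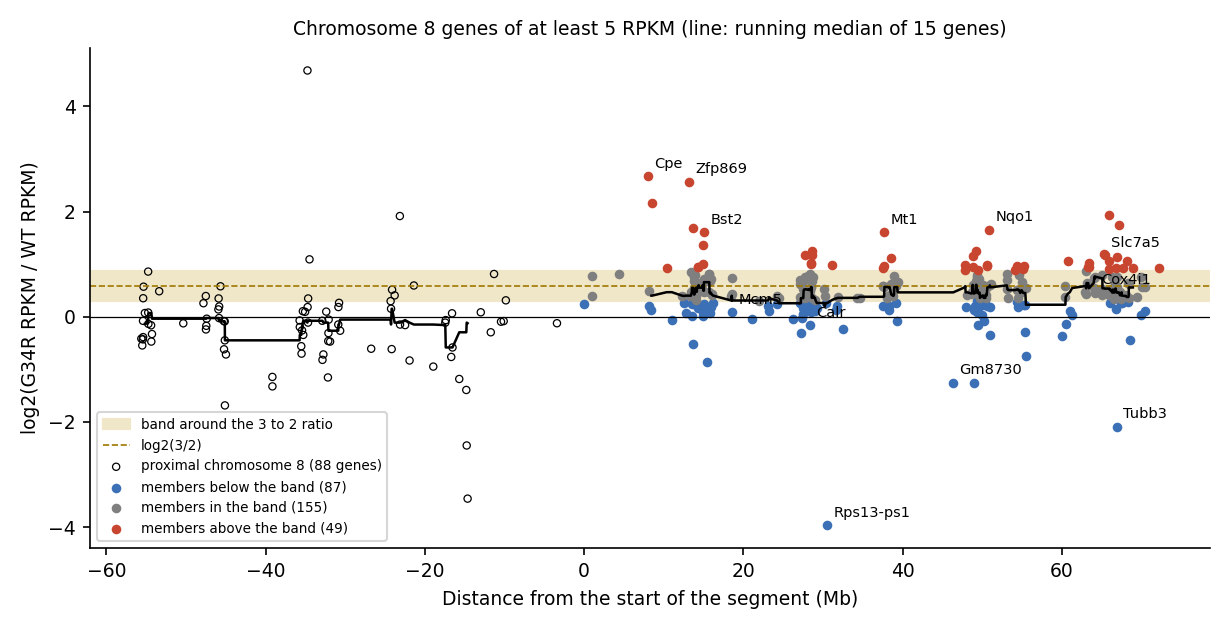
Log2 ratio of G34R to WT RPKM (y axis) of each chromosome 8 gene of at least 5 RPKM by its distance from the start of the segment in Mb (x axis). Open circles are proximal genes, filled circles are members coloured by their position against the band, and the line is the running median of 15 genes, which lies near 0 or under it before the start and between 0.2 and 0.8 after it.

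At the start of the segment, Spcs3, which encodes a subunit of the signal peptidase, was the last proximal gene at this level, 3.40 Mb before the threshold. It was at 17.5 RPKM in WT and 16.1 RPKM in G34R cells, which gave a log2 ratio of -0.12. Before it lay Dctd, at 6.51 and 8.08 RPKM, and Wwc2, at 7.5 and 7.08 RPKM. The first member was BC088983, at 4.70 and 5.54 RPKM, and after it came Sap30, a subunit of the Sin3 histone deacetylase complex, at 21.8 and 28.6 RPKM. Hmgb2, a DNA-bending chromatin protein of dividing cells, was at 29.8 RPKM in WT and 51.0 RPKM in G34R cells, which gave a log2 ratio of 0.77. Of the 88 proximal genes, 14 (15.9%) also had a log2 ratio in the band, close to the 16.7% of all genes. Nothing about the start of the segment is read from this count.

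The abundant housekeeping genes of the segment lay mostly in the band. The member with the highest mean level, Cox4i1, encodes a subunit of cytochrome c oxidase, the last enzyme of the respiratory chain, and was at 231 RPKM in WT and 317 RPKM in G34R cells, which gave a log2 ratio of 0.46. Kars, the lysyl-tRNA synthetase, was at 86.6 and 126 RPKM (0.55), and Asna1, an ATPase that delivers tail-anchored proteins to the endoplasmic reticulum, was at 81.2 and 120 RPKM (0.56). Rpl13, a protein of the large ribosomal subunit, was at 90.7 and 115 RPKM (0.34). The counting intervals of Rpl13 (0.31 to 0.37) and Kars (0.52 to 0.57) do not overlap, so abundant members differed from each other by more than read counting gives.

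Among the 10 members with the highest mean level, the 3 outside the band on the low side were Mcm5, Aprt and Gm8730. Mcm5, a subunit of the replicative DNA helicase, was at 104 RPKM in WT and 110 RPKM in G34R cells, which gave a log2 ratio of 0.08 with a counting interval from 0.06 to 0.10. Aprt, an enzyme of adenine salvage, was at 83.4 and 99.7 RPKM (0.26), but came into the band, at 0.30 to 0.37, under each of the 3 other scalings tried. Gm8730, a clone-named gene, was at 211 and 88.6 RPKM (-1.25), but its value is uncertain, for the reason given below with the ribosomal protein gene copies. Mt2, a metallothionein, was above the band.

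Ddx28, a mitochondrial RNA helicase that served the study as the reference transcript for qRT-PCR, is itself a member. It was at 6.37 RPKM in WT and 9.04 RPKM in G34R cells, which gave a log2 ratio of 0.51 with an interval from 0.38 to 0.62. The paper describes Ddx28 as unchanged between WT and G34R cells. In the libraries used here, 1 per group, its RPKM ratio was instead near 3 to 2. RPKM and qRT-PCR are different measures, and the difference between the 2 statements was not tested.

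**Figure D3:**
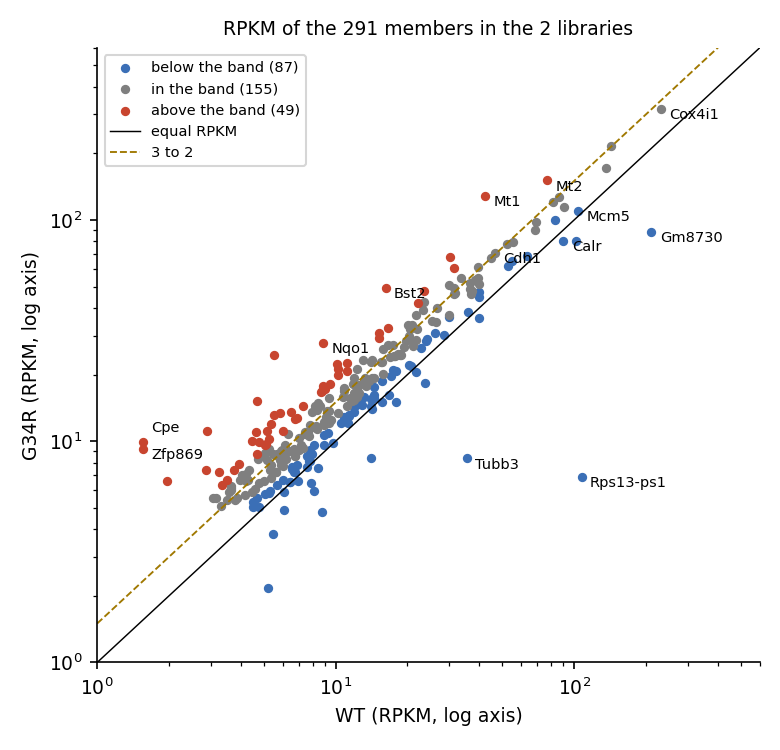
RPKM of each of the 291 members in WT (x axis) and G34R cells (y axis), both on log axes, coloured by position against the band, with lines for equal levels and for the 3 to 2 ratio. Of the 291 members, 155 lie in the band around the 3 to 2 line, 87 below it and 49 above it. Rps13-ps1, Gm8730 and Tubb3 lie far under the line of equal levels.

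Many members encode subunits of complexes whose other subunits are made from genes on other chromosomes, which gives each a set of partners with the same task. In 22 complexes with subunits of both kinds, the median of the segment's subunits was above the median of the partners in 22 of 22. The median difference over complexes was 0.63 on the log2 scale, from 0.13 for the MCM helicase to 1.51 for shelterin. The shelterin value rests on Acd alone, which was under 5 RPKM in WT cells and entered through the G34R sample, and the next highest was 1.14 for the origin recognition complex. The 34 subunits on the segment had a median log2 ratio of 0.49, and 23 lay in the band, 9 below and 2 above it. Their 221 partners had a median of -0.14, and 17 of them (7.69%) lay in the band. Genes of 1 complex are not replicates, and the count describes these 2 libraries.

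The licensing machinery shows the range. Orc6, a subunit of the origin recognition complex, was at 20.0 RPKM in WT and 33.7 RPKM in G34R cells (0.75), while its 4 partners had log2 ratios from -0.50 to -0.22. Cdt1, which loads the helicase onto origins, was at 55.4 and 79.2 RPKM (0.52). Mcm5 sat within the range of its 5 partners, which ran from -0.18 to 0.22, so the helicase subunit of the segment was not set apart from the rest of the ring.

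Respiratory chain and ribosomal subunits were also set apart from most of their partners. For Cox4i1, all 10 partners had lower log2 ratios than its own 0.46, and the highest of them was 0.20. Ndufa13, at 25.4 and 35.04 RPKM (0.47), and Ndufb7, at 5.89 and 9.05 RPKM (0.62), belong to NADH dehydrogenase, and all 31 partners lay below both. Rpl13 exceeded 40 of 43 partners in the large ribosomal subunit, whose median was -0.30. Cnot1, the scaffold of the CCR4-NOT deadenylase, was at 44.9 and 67.1 RPKM (0.58), above all 6 partners.

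Other complexes were mixed, with some subunits set apart from their partners and some not. Psmb10, the inducible proteasome subunit of antigen presentation, was at 8.44 RPKM in WT and 7.53 RPKM in G34R cells (-0.16) and was the only 1 of the 34 that did not exceed the median of its partners. Psmd7, of the proteasome cap, was at 39.4 and 61.0 RPKM (0.63), above all 31 partners. The V-ATPase subunits Atp6v1b2, at 17.4 and 20.9 RPKM (0.26), and Atp6v0d1, at 20.2 and 22.1 RPKM (0.13), lay inside the range of theirs. Cenpt, a protein of the inner kinetochore, was at 20.75 and 21.98 RPKM (0.08), below the band but still above all 5 of its partners. Cenpn of the same network was at 9.16 and 13.7 RPKM (0.58), also above all 5. Itgb1, the beta 1 integrin, was at 22.1 and 42.1 RPKM (0.93), but its 3 alpha partners on other chromosomes also had positive ratios, with a median of 0.63.

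**Figure D4:**
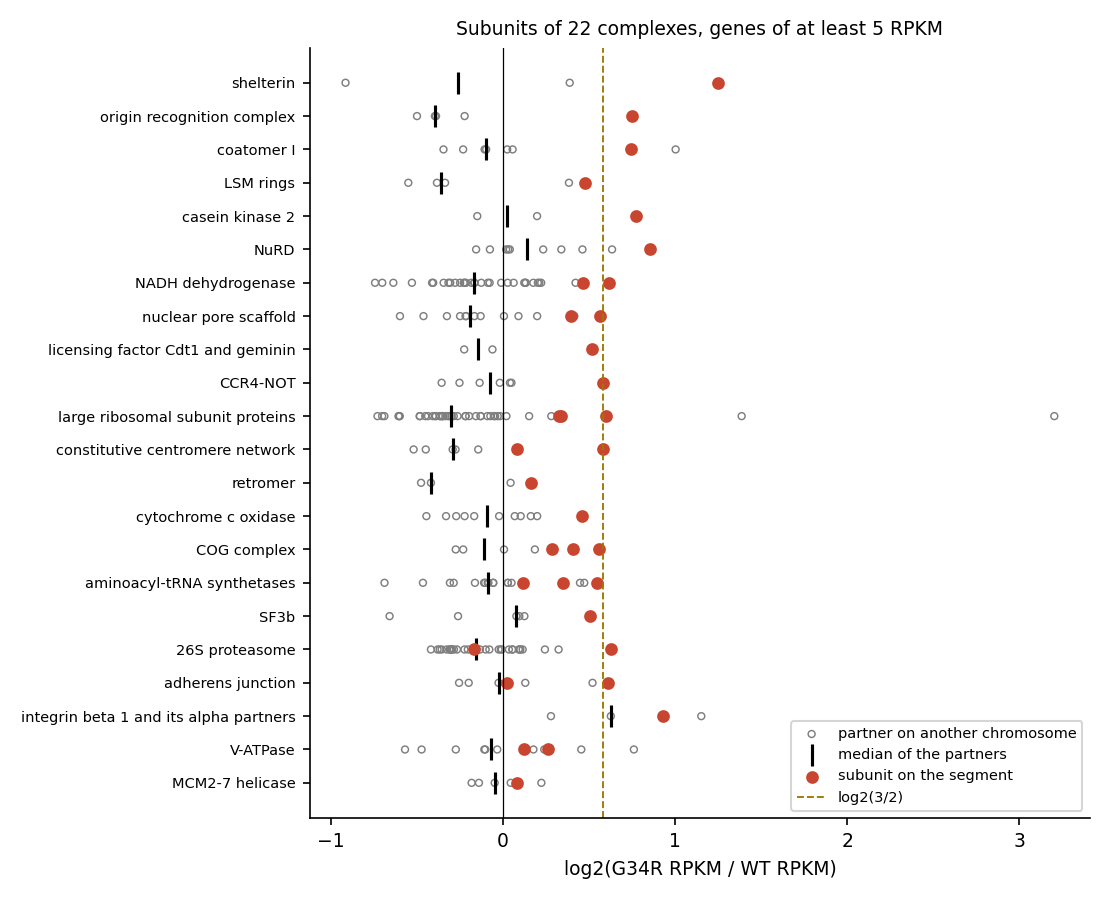
Log2 ratio of G34R to WT RPKM (x axis) for subunits of 22 complexes (y axis), ordered by the difference between the median of subunits on the segment (filled) and the median of partners on other chromosomes (open circles, with a bar at their median). The filled points lie to the right of the bar in each complex except for Psmb10 of the 26S proteasome.

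A log2 ratio within 0.1 of the 3 to 2 ratio was found for 57 members. The share of all genes in that narrow range was not counted, so nothing is read from this count. Nudt21, which selects polyadenylation sites, was at 26.6 RPKM in WT and 39.9 RPKM in G34R cells, and Nup93, of the nuclear pore, at 31.7 and 47.0 RPKM, with log2 ratios of 0.58 and 0.57. Prmt7, an arginine methyltransferase, was at 15.6 and 22.9 RPKM (0.55) and was also close to the 3 to 2 ratio.

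By function, the shared ratio was found across basic cell processes. Of 31 members in ribosome, translation and RNA processing, 24 lay in the band, 6 below and 1 above, with a median log2 ratio of 0.50, where 16.7% of all genes lay in the band. Sf3b3, a core splicing factor, was at 69.0 RPKM in WT and 98.0 RPKM in G34R cells (0.51). The lowest of the list was Sugp1, a splicing factor, at 9.79 and 9.82 RPKM (0.00), and the highest was Naf1, needed to assemble box H/ACA RNPs, at 9.04 and 17.1 RPKM (0.92). Farsa, a subunit of the phenylalanyl-tRNA synthetase, was at 14.4 and 15.6 RPKM (0.12), while Aars, the alanyl-tRNA synthetase, was at 37.4 and 47.7 RPKM (0.35).

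Mitochondrial genes gave 17 members, with 11 in the band, 5 below and 1 above and a median of 0.47. Tomm20, the import receptor of the outer membrane, was at 52.3 RPKM in WT and 77.5 RPKM in G34R cells (0.57). Got2, the mitochondrial aspartate aminotransferase, was at 31.2 and 49.4 RPKM (0.66). Coq9 (7.97 and 8.73 RPKM), of ubiquinone synthesis, and Gpt2 (11.2 and 12.1 RPKM), an alanine aminotransferase, lay below the band. Pdf, the peptide deformylase, was at 3.73 and 7.41 RPKM (0.99) and was the highest, but it shares 2326 bases of span with Cog8 on the same strand. Pdf was also under 5 RPKM in WT cells and entered only through the G34R sample.

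Protein folding, ubiquitin and proteasome genes gave 28 members, 20 of them in the band, 7 below and 1 above, with a median of 0.42. Calr, a chaperone of the endoplasmic reticulum that also binds calcium, was at 90.1 RPKM in WT and 80.5 RPKM in G34R cells, which gave a log2 ratio of -0.16 with an interval from -0.19 to -0.13. It was among the most abundant members below the band. Usp10, a deubiquitinase, was at 15.2 and 30.9 RPKM (1.02). Map1lc3b, an autophagosome protein, was at 14.5 and 19.4 RPKM (0.41), whereas Gabarapl2, which encodes a related ubiquitin-like protein, was at 14.1 and 8.37 RPKM (-0.75).

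Chromatin and transcription genes gave 27 members, with 19 in the band, 6 below and 2 above and a median of 0.46. Centred on other chromosomes, 21 lay in the band, 3 below and 3 above. Nacc1, a BTB-domain transcriptional regulator of ES cells, was at 36.5 RPKM in WT and 51.8 RPKM in G34R cells (0.50). Gatad2a, of the NuRD complex, was at 23.4 and 42.4 RPKM (0.85, and 0.90 to 0.94, above the band, under the other scalings), and 9 of its 10 partners were lower. Smarca5, the ISWI remodeller, was at 18.6 and 24.5 RPKM (0.40). Ctcf, which anchors chromatin loops, was at 17.1 and 19.8 RPKM (0.21), below the band. Cdyl2, a chromodomain protein, was at 23.7 and 18.4 RPKM (-0.37), and Sall1, a zinc finger factor, was at 17.8 and 15.1 RPKM (-0.24), so these chromatin genes were lower in the G34R library.

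In replication and cell cycle, 7 of 15 members lay in the band, 6 below and 2 above, with a median of 0.52, and centring on other chromosomes moved these counts to 10, 3 and 2. E2f4, a repressive E2F factor, was at 31.4 RPKM in WT and 60.4 RPKM in G34R cells (0.94), and Fanca, of interstrand crosslink repair, was at 3.49 and 6.65 RPKM (0.93). Fanca was under 5 RPKM in WT cells and so entered only through the G34R sample. Below the band with Mcm5 and Cenpt lay Rnaseh2a, Chtf8, Mau2 and Asf1b, with log2 ratios from 0.17 to 0.25. Endoplasmic reticulum, Golgi and vesicle genes gave 19 members, 12 in the band, 6 below and 1 above, with a median of 0.42. There 3 lay below when centred on other chromosomes or with equal RPKM sums. Vps35, the core of the retromer, was at 39.99 and 44.85 RPKM (0.17), and Cope, of the COPI coat, was at 8.59 and 14.4 RPKM (0.75). The lipid and sterol list gave 8 members, 5 in the band, 1 below and 2 above (median 0.58), among them Isyna1, of inositol synthesis, at 39.6 and 54.6 RPKM (0.47). Of the 2 above, Cyb5b and Galnt2, the latter is a glycosylation enzyme rather than a lipid or sterol gene.

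Cdh1 (E-cadherin), the main adhesion molecule of ES cells, was at 46.5 RPKM in WT and 71.0 RPKM in G34R cells, which gave a log2 ratio of 0.61 with an interval from 0.58 to 0.64. Its neighbour Cdh3 (P-cadherin) was at 6.42 and 6.53 RPKM (0.02), Lphn1 was at 14.3 and 14.0 RPKM (-0.03), and Cd97, an adhesion receptor, was at 6.05 and 4.90 RPKM (-0.30). Itgb1, Bcar1 (10.2 and 19.9 RPKM), an integrin signalling scaffold, and Cmtm4 (7.26 and 14.4 RPKM) lay above it, with log2 ratios of 0.93, 0.96 and 0.98. That made 3 below, 1 inside and 3 above of 7 members.

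**Figure D5:**
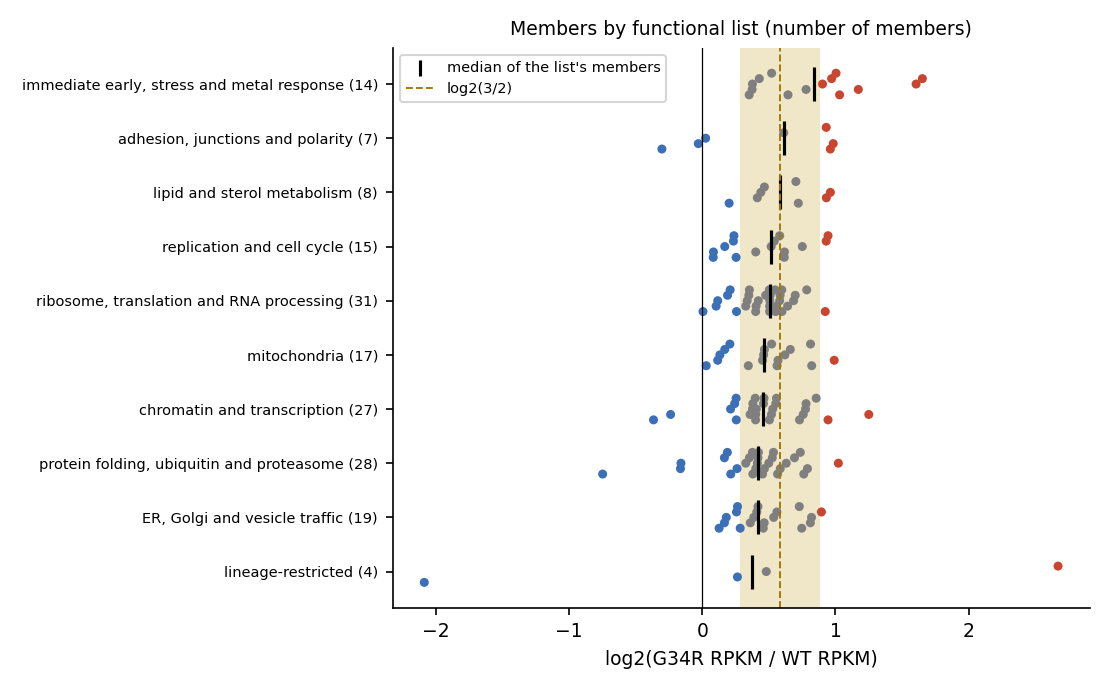
Log2 ratio of G34R to WT RPKM (x axis) of members by functional list (y axis, with the number of members), coloured by position against the shaded band, with a bar at each list's median. The medians of 9 lists lie between 0.37 and 0.61, and that of the immediate early, stress and metal response list is at 0.84.

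In the immediate early, stress and metal response list, 7 of 14 members lay in the band, 7 above and 0 below, with a median log2 ratio of 0.84. Above the band lay 4.28% of all genes and 16.8% of the members, and 5 of the list were past 2-fold, where 3.09% of all genes were. The list was written with earlier results of these data known, and its difference from the other lists was not tested. Genes of this kind respond quickly to growth factors, metals, oxidants or amino acid supply in the medium. In the band lay Hmox1 (13.9 and 18.6 RPKM, 0.43), the haem oxygenase, Jund (10.8 and 16.9 RPKM, 0.64), a subunit of the transcription factor AP-1, and Ier2 (21.7 and 37.2 RPKM, 0.78), an immediate early gene. Junb, also of AP-1, was at 8.83 RPKM in WT and 17.7 RPKM in G34R cells, a 2.01-fold ratio.

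Both metallothionein genes of this level lay above the band. Metallothioneins bind zinc and copper through clustered cysteines, and their genes are switched on by the zinc sensor MTF1 through metal response elements. Mt1 was at 42.2 RPKM in WT and 128 RPKM in G34R cells, which gave a log2 ratio of 1.61 with an interval from 1.54 to 1.67. Mt2 was at 76.9 and 151 RPKM, a log2 ratio of 0.97 with an interval from 0.91 to 1.03. The intervals do not overlap, so Mt1 departed further from the 3 to 2 ratio than its neighbour by more than read counting gives. Leaving out Mt1 and Mt2 gave a median of 0.71 for the rest of the list.

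The 250 bases before each start are shown because the known metal response elements of these genes lie close to their starts. They were read from the mm9 genome, with cores of the metal response element (TGCACNC or TGCGCNC on either strand, overlaps counted) in capitals. Mt2 is on the plus strand, and its window is chr8:96696268-96696517, while the Mt1 window is chr8:96702739-96702988 on the same strand. That Mt1 window precedes the earlier of its annotated starts, and a later start is described below.
Mt2: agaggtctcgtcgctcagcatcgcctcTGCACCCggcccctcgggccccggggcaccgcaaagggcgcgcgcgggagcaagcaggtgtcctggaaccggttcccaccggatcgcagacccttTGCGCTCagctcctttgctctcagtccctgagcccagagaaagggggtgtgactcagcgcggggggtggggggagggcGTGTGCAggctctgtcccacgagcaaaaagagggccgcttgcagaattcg
Mt1: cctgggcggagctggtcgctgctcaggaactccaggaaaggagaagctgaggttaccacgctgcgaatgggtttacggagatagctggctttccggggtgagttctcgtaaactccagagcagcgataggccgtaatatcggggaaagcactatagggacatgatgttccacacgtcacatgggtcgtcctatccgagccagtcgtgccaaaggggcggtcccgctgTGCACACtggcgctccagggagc

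The Mt2 window held 3 cores and the Mt1 window held 1. A shorter Mt1 transcript of the annotation begins 122 bases further on, at 96703111, and the 250 bases before that start held 5. The count for Mt1, and its rank against Mt2, thus depends on which start is used. Among the members, 37.5% held at least 1 core in this window and 4.47% held at least 3, and among all 5867 genes 30.3% and 2.56% did. A match of letters is a description and does not show binding. Eps15l1 and Hsdl1, with 4 cores each, had log2 ratios in the band, 0.69 and 0.86. Mt3 and Mt4, the other metallothionein genes of the cluster, were under the level threshold, at 1.77 and 3.33 RPKM and at 0.20 and 0.88 RPKM.

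Some genes of oxidant defence and amino acid uptake were also above the band, while the haem oxygenase Hmox1 of the same list lay in it at 0.43. Nqo1, a quinone reductase that is a standard target of the oxidant sensor NRF2, was at 8.86 RPKM in WT and 27.9 RPKM in G34R cells, which gave a log2 ratio of 1.65 with an interval from 1.56 to 1.75. Prdx2, a peroxiredoxin, was at 23.5 and 48.0 RPKM (1.03), while Rnaseh2a, which overlaps it on the other strand, was at 12.95 and 14.55 RPKM (0.17). Slc7a5, the light chain of the large neutral amino acid transporter LAT1, was at 30.1 and 67.8 RPKM (1.17). Its heavy chain Slc3a2, encoded on chromosome 19, was at 30.3 and 46.9 RPKM (0.63), so both chains were higher in the G34R library and the light chain by more. Cyba, a subunit of NADPH oxidase, was at 6.74 and 12.6 RPKM (0.90).

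Genes of the same programmes outside the segment, listed after the members' values were seen, give a comparison. Of 11 other NRF2 target genes at this level, 8 were higher in G34R cells, where 55.3% of all genes were lower, with a median log2 ratio of 0.39 and a range from -0.11 for Gclm to 0.88 for Txnrd1, a thioredoxin reductase at 37.3 and 68.8 RPKM. For metal response, the zinc exporter gene Slc30a1, also an MTF1 target, was at 2.02 RPKM in WT and 1.31 RPKM in G34R cells. Of 10 other immediate early genes, 8 were under 5 RPKM in both samples. The 2 at this level split, with Btg2 at 9.41 and 14.9 RPKM and Ier3 at a log2 ratio of -0.40. Over all 10, 9 had a higher value in G34R cells and 1 a lower one. Among the 9 were Fosb, at 0.01 and 0.02 RPKM, Egr1, at 3.37 and 3.40 RPKM, and Jun, at 0.73 and 1.82 RPKM. The share of all genes under 5 RPKM that were higher was not counted, so nothing is read from the 9.

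The highest ratio of all members was that of Cpe, carboxypeptidase E of peptide hormone processing, which was at 1.55 RPKM in WT and 9.88 RPKM in G34R cells, which gave a log2 ratio of 2.67 with an interval from 2.49 to 2.86. Zfp869, a zinc finger gene, was at 1.56 and 9.24 RPKM (2.57), and Gm10664, a non-coding transcript, was at 5.49 and 24.5 RPKM (2.16). Snai3, of the Snail family of repressors, was at 2.88 and 11.1 RPKM (1.94), and Rhou, a small GTPase induced by Wnt, was at 1.97 and 6.59 RPKM (1.74). Nr2c2ap was at 4.70 and 15.1 RPKM (1.69), and Abhd8 at 2.87 and 7.42 RPKM (1.37). All of these except Gm10664 reached 5 RPKM only in G34R cells and so entered through the high sample. Bst2 (tetherin), an interferon-induced protein that holds enveloped virus at the cell surface, was at 16.2 and 49.4 RPKM (1.61) and was above the threshold in both.

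Other members above the band included enzymes of glycans and lysosomes. Man2b1, a lysosomal alpha-mannosidase, was at 5.51 RPKM in WT and 13.2 RPKM in G34R cells (1.26), and Ifi30, a lysosomal thiol reductase, was at 15.2 and 29.2 RPKM (0.95). Fuk, a fucose kinase, was at 5.25 and 10.2 RPKM (0.96), and Galnt2, which starts mucin-type glycosylation, at 8.71 and 16.6 RPKM (0.93). Mri1, of methionine salvage, was at 4.47 and 10.1 RPKM (1.17), Pik3r2, a regulatory subunit of PI3-kinase, at 5.09 and 9.75 RPKM (0.94), and Kifc3, a minus-end kinesin, at 5.14 and 11.1 RPKM (1.11). These 7 genes were at 4.47 to 15.2 RPKM in WT cells and exceeded the 3 to 2 ratio. Mri1 was under 5 RPKM in WT cells and entered only through the G34R sample.

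Shelterin protects telomeres, and its subunit gene Acd, which encodes TPP1, was at 4.62 RPKM in WT and 10.99 RPKM in G34R cells (1.25). Terf2 and Terf2ip, shelterin genes of the same segment, were under the level threshold, at 2.60 and 4.68 RPKM and at 2.66 and 4.05 RPKM, with log2 ratios in the band.

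At the other end, 4 members were lower in G34R cells by more than 2-fold. Rps13-ps1, a copy of a ribosomal protein gene annotated from 89571619 to 89572074, was at 108 RPKM in WT and 6.90 RPKM in G34R cells, which gave a log2 ratio of -3.96. Its parent gene Rps13, on chromosome 7, was at 80.9 and 78.9 RPKM (-0.03). Gm8730 was at 211 and 88.6 RPKM (-1.25), and Rps26-ps1 was at 102 and 79.9 RPKM (-0.35) with its parent Rps26 at 423 and 385 RPKM. Reads of such copies can be placed on the parent or the copy, so these values are uncertain. The 31 members with clone or pseudogene names had 10 in the band, 14 below and 7 above, against 145, 73 and 42 of the other 260.

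Tubb3, a beta-tubulin typical of neurons, was at 35.6 RPKM in WT and 8.36 RPKM in G34R cells, which gave a log2 ratio of -2.09 with an interval from -2.182 to -1.997. Its neighbour on the same strand, Def8, was at 10.1 and 22.4 RPKM (1.14), so Tubb3 and Def8 lay on opposite sides of the band. Tppp3, a tubulin polymerisation-promoting protein, was at 5.19 and 2.16 RPKM (-1.26). Fewer cells of a type that expresses Tubb3 and less Tubb3 RNA in each cell cannot be told apart in these bulk samples. Below these came Zfp961, at 8.75 and 4.81 RPKM (-0.86), Gabarapl2, Armc6, at 5.46 and 3.82 RPKM (-0.52), Tsnax, which encodes translin-associated factor X, at 8.09 and 5.94 RPKM (-0.45), and Cdyl2.

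Some members with roles in translation and signalling were close to equal levels. Abce1, which recycles ribosomes, was at 63.4 RPKM in WT and 68.5 RPKM in G34R cells (0.11). Mrpl34, of the mitochondrial ribosome, was at 28.5 and 30.3 RPKM (0.09). Gab1, an adaptor downstream of receptor tyrosine kinases, was at 40 and 47.1 RPKM (0.23), Prkaca, the catalytic subunit of protein kinase A, at 14.4 and 16.2 RPKM (0.17), and Nr2f6, an orphan nuclear receptor, at 7.55 and 7.65 RPKM (0.02). These 5 were picked after their values were seen, and they were below the band but not lower in G34R cells.

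Zinc finger genes spanned the range. Of 6 members named Zfp, 3 lay below the band, 0 in it and 3 above. Zfp961, Zfp330 (16.7 and 16.2 RPKM) and Zfp930 (7.71 and 8.10 RPKM) were below, with log2 ratios of -0.86, -0.05 and 0.07. Zfp1 (4.70 and 8.76 RPKM), Zfp423 (3.95 and 7.85 RPKM) and Zfp869 were above, at 0.90, 0.99 and 2.57. The 3 above the band were under 5 RPKM in WT cells and entered only through the G34R sample, so the spread is in part set by the level threshold. With them the median was 0.48, and that of 76 Zfp genes on other chromosomes, of which 3 lay above the band, was -0.27. Of all genes, 4.28% lay above the band.

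Genes tied to specialised tissues were mostly below the threshold, since 4 of 43 such genes on the segment were members. Besides Cpe and Tubb3 these were Acta1, the skeletal actin, at 13.1 RPKM in WT and 15.8 RPKM in G34R cells (0.26, and 0.31 to 0.34 under the other scalings), and Syce2, of the meiotic synaptonemal complex, at 12.3 and 17.2 RPKM (0.48). Under the threshold, Calb2 (calretinin) was at 1.64 and 0.06 RPKM, and Mmp2, a matrix protease, was at 2.31 and 4.10 RPKM.

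Although ratios varied little with position, runs of 10 neighbouring members differed. The lowest run, from Tmem231 to Mphosph6 (114435918 to 120325829), had a median log2 ratio of 0.07. It held Gabarapl2, Cdyl2, Tmem231 (7.87 and 6.46 RPKM), Gcsh (39.8 and 36.0 RPKM), of glycine cleavage, and Plcg2 (8.96 and 9.61 RPKM), but also Kars and Cenpn in the band. The highest run, from Map1lc3b to Fam38a (124114368 to 125075229), had a median of 0.85 and held Klhdc4 (5.84 and 13.4 RPKM), Slc7a5, Snai3 and Fam38a (10.2 and 21.2 RPKM), now called Piezo1, a mechanically gated channel. In that run Mvd (18.7 and 24.8 RPKM), of sterol synthesis, and Zc3h18 (16.9 and 23.9 RPKM) lay in the band. Picked as extremes, these runs are descriptions. The clone-named Gm20388, annotated over 4.43 Mb, overlaps 21 members on its strand, and its own value (9.45 and 18.1 RPKM) cannot be told apart from theirs.

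Median transcript length was 2846 bases below the band, 3179 bases in it and 3050 bases above it. Median level was 11.9, 10.8 and 6.52 RPKM in WT cells and 12.9, 15.3 and 13.6 RPKM in G34R cells, and these follow in part from the sorting by ratio. Median GC content of the transcripts was 52.3%, 53.5% and 55.7%, against 50.1% for genes of other chromosomes. Across the 291 members, the Spearman correlation of GC content and log2 ratio was 0.188, and across 5477 genes of other chromosomes it was 0.277, where all points share the same 2 libraries. Within the low, middle and high GC ranges, cut on genes of other chromosomes, the members' median exceeded that of other chromosomes by 0.54, 0.54 and 0.47.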

How the data were processed

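RNA-seq of 1 WT and 1 G34R ES cell library was analysed. The authors aligned stranded 50 bp reads to mm9 with STAR (v2.4.2a), quantified mRNA per gene in Seqmonk on the stated strand with isoforms merged and length corrected, and deposited RPKM. RPKM is relative to each library's total, so abundant genes affect all others, and reads shared between gene copies affect both. Log2 ratios were computed with RPKM under 0.01 set to 0.01. Depth was estimated from steps between low RPKM of short genes, and reads, exact conditional 95% intervals and GC content used GENCODE M1 transcripts on the mm9 genome. Intervals cover counting error only. With 1 library per group, no test was run.

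Members, lists and complexes were chosen with earlier results of these data known. Genes named were the 10 highest and lowest ratios, the 10 most abundant, the extremes and 3 most abundant of each list, complex subunits, genes at the thresholds, in the extreme windows or used by the study. Other names were chosen after their values were seen. Scripts were tested on simulated data. Alternatives were other filters, scalings, bands, folds and a pseudocount. Python 3.11.15, NumPy 2.4.6, pandas 2.3.3, SciPy 1.17.1 and matplotlib 3.10.9 were used. ChIP-seq and DNA were not analysed here. Results for a few members are not reported here.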

Additional observations from a re-analysis of the deposited data

How the results depend on the processing

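With 1 library per group, none of these values has a replicate error, and a median counted as unmoved when it shifted by under 0.1 on the log2 scale. The members' median stayed between 0.40 and 0.56, that of proximal chromosome 8 between -0.12 and -0.04, and the difference of segment subunits from partners between 0.61 and 0.64 under the 9 or 10 alternatives run for each. Of 86 alternative values, 68 stayed within that limit or, for counts, within 1.5 times, and no median changed sign. Counts have no sign to change. Centring on other chromosomes or equal RPKM sums shifts all genes alike, so neither can move the difference from partners. At 1 RPKM, 137 members lay below the band, 76 above, 44 were past 2-fold up and 8 down. At 10 RPKM, 103 lay in the band and 52 below. With no filter on level, 256 lay in the band, 296 below, 136 above, 92 were past 2-fold up and 51 down. At 5 RPKM in both samples, 16 were past 2-fold up. Centring on other chromosomes, whose median was -0.08, gave 44 past 2-fold up, and centring on the 500 genes nearest in RPKM gave 42. A 1.5-fold threshold gave 105 up, and a 3-fold threshold gave 9 up and 2 down. Without clone names, 2 were past 2-fold down. These counts follow the number of genes admitted or the scale. Of 107 named genes, 98 to 102 kept their position against the band under the pseudocount and the 3 scalings, and none changed sign. Starting 10 Mb into the segment and leaving out the metallothioneins were chosen after seeing the data. Low genes are limited by depth, down to 160 estimated reads in a member.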
